A study of Mus musculus with 8 samples.

Results

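Bile acid synthesis, transport and sensing were described by 10 genes, of the 55487 genes in the count tables. The genes were chosen by name and role: Cyp7a1, Cyp8b1, Cyp27a1 and Cyp7b1 for synthesis, Slc27a5 and Baat for conjugation, Slc10a1 for uptake, Abcb11 and Slc51b for export, and Nr0b2 for sensing. RNA was sequenced from whole liver of 8 male mice fed a Western diet for 12 weeks from 8 weeks of age. The 4 Mc1r LKO mice (numbers 141, 156, 157 and 182) carried floxed Mc1r alleles (Mc1r fl/fl) together with AlbCre/+, a Cre recombinase driven by the albumin promoter and thus active in hepatocytes. The 4 control mice (numbers 154, 159, 181 and 193) were age-matched Mc1r fl/fl mice. Every group therefore carried the floxed alleles and received the same diet, and the mice were fasted for some hours before sacrifice. Mc1r, the melanocortin 1 receptor gene, had 0 counts in all 8 mice, so the labels could not be checked against it. The comparison asks how the bile acid genes of the liver stood when hepatocytes lacked this receptor.

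Bile acids are made from cholesterol in hepatocytes, secreted into bile, reabsorbed in the ileum and returned to the liver by the portal vein. In the classic pathway, Cyp7a1 (cholesterol 7α-hydroxylase) catalyzes the rate-limiting step and Cyp8b1 (sterol 12α-hydroxylase) directs the product towards cholic acid, while the alternative pathway starts with Cyp27a1 (sterol 27-hydroxylase) and continues with Cyp7b1 (oxysterol 7α-hydroxylase). The nuclear receptor Fxr, encoded by Nr1h4, binds bile acids and is known to induce Nr0b2 (Shp), Abcb11 and Slc51b, and Shp represses Cyp7a1 and Cyp8b1. Lrh-1, encoded by Nr5a2, is another nuclear receptor of the liver.

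Sequence upstream of the start was at hand in RefSeq promoter windows (build GRCm38.p6) for 6 of the 10 genes, Cyp27a1, Cyp8b1, Nr0b2, Abcb11, Slc51b and Slc10a1, the last with 2 starts, and the windows ran from 250 bases before to 50 bases after each start. The hexamer AGGTCA, the building block of most nuclear receptor sites, stood on either strand in 3 of these 7 windows, those of Abcb11, Slc51b and the start within Slc10a1, and in 16.3% of all 32851 windows of the same length. The octamer CAAGGNCA, which resembles the site of Lrh-1 and was searched after the windows had been read, stood in 2 of the 7 windows, those of Nr0b2 and Cyp8b1, and in 6.71% of all windows. None of the 7 windows held the full Lrh-1 element TCAAGGTCA, which was in 0.423% of all windows. None of them held AGGTCA followed after 1 base by its reverse complement TGACCT or by a second AGGTCA, arrangements used by Fxr and by Hnf4a, found in 3 and 13 of all windows. The octamer holds the hexamer where N is T, which was not so in these 7 windows. The 250 bases before the start are shown for Cyp8b1 and Nr0b2 and for Slc10a1 and Abcb11, the transporters compared with each other further on. They run 5′ to 3′ on the strand of the gene, with the hexamer or the octamer in capitals. The windows of Cyp27a1 and Slc51b are not shown, and in that of Slc51b the hexamer begins 203 bases before the start.
Cyp8b1, chr9:121916306-121916555, minus strand: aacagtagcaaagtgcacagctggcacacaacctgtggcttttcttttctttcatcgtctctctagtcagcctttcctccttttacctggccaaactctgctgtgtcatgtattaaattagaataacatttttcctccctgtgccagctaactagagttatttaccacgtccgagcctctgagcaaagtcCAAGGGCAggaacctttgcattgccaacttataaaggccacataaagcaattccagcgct
Nr0b2, chr4:133553126-133553375, plus strand: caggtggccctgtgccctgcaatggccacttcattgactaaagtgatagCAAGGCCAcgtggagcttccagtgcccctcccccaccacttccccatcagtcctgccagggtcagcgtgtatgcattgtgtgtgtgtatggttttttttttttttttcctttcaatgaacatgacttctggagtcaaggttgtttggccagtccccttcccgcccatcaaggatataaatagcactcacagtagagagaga
Abcb11, chr2:69342617-69342866, minus strand: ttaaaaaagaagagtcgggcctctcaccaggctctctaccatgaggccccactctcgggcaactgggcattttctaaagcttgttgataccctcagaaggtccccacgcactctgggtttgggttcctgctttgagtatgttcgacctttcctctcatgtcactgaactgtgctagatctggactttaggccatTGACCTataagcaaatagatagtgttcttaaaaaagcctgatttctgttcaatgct
Slc10a1, start used for the gene in the tables, chr12:80968706-80968955, minus strand: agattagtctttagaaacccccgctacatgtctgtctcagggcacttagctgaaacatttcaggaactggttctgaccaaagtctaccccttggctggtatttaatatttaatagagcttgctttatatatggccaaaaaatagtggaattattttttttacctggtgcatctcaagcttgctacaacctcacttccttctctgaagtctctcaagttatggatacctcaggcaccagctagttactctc
Slc10a1, start within the gene, chr12:80968080-80968329, minus strand: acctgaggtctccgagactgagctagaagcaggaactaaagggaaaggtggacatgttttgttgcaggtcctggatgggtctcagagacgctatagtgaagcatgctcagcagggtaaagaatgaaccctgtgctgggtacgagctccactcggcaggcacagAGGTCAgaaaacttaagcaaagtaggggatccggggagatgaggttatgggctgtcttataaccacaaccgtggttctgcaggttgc

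The capitals begin 60 bases before the start of Cyp8b1, 201 bases before that of Nr0b2, 56 bases before that of Abcb11 (where AGGTCA lies on the opposite strand and is read as TGACCT) and 87 bases before the inner start of Slc10a1. The window at the outer start of Slc10a1 held none of the motifs. A match describes letters only, and binding of a receptor was not measured.

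The levels of the 10 genes spanned a wide range. Gene positions are those of the count tables (GRCm38), and no exon of the 10 genes overlapped an exon of another gene. Expressed as reads per kilobase of exon, scaled to a common library size (RPKM), which allows levels to be compared between genes, the highest were the bile acid CoA ligase Slc27a5 (281 ± 39.7 RPKM, SD, n = 8 mice) and Cyp8b1 (278 ± 37.6 RPKM), and these neighbours did not differ beyond their spread, with Slc27a5 above Cyp8b1 in 5 of 8 mice. They were followed by the sodium-dependent uptake transporter Slc10a1 (Ntcp) at 225 ± 45.5 RPKM, below Cyp8b1 in 7 of 8 mice, by Cyp27a1 at 175 ± 16.4 RPKM and by the amino acid conjugating enzyme Baat at 132 ± 17.0 RPKM. The bile salt export pump Abcb11 (Bsep) stood at 88.6 ± 17.3 RPKM, Nr0b2 at 54.7 ± 18.1 RPKM and Cyp7b1 at 29.6 ± 13.0 RPKM. Abcb11 was above Nr0b2, and Nr0b2 above Cyp7b1, in 7 of 8 mice each. Cyp7a1, at 5.83 ± 2.74 RPKM, was the lowest of the synthesis enzymes in every mouse, and Slc51b, the β subunit of the basolateral organic solute transporter, was near the limit of detection at 1.08 ± 0.676 RPKM. All other neighbours in this order kept it in 8 of 8 mice. All 10 genes passed the filter on low counts.

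None of the 10 genes passed the threshold for a difference between control and Mc1r LKO mice. None was called at an adjusted p under 0.05 (0 of 10, and 0% of the 13400 genes tested with edgeR's quasi-likelihood test), none had an unadjusted p under 0.05 (0 of 10, against 6.72% of all genes tested) and in none did the genotypes separate without overlap (0 of 10, against 4.16% of all genes tested). The estimates were above 0 for 6 genes and below 0 for 4 (Mc1r LKO relative to control), and their median on the log2 scale was 0.05, where the median of all genes tested was -0.01. Without control mouse 181 or Mc1r LKO mouse 182, which stand apart, the adjusted count stayed at 0 of 10 and at 0 over all genes. At the unadjusted threshold 2 of the 10 passed without mouse 181, against 891 of 13657 genes tested. Without mouse 182 it was 1 of the 10, against 1095 of 13674. The p-values measure the spread between these mice, and in whole liver fewer cells of a type cannot be told apart from less RNA per cell.

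**Figure D1:**
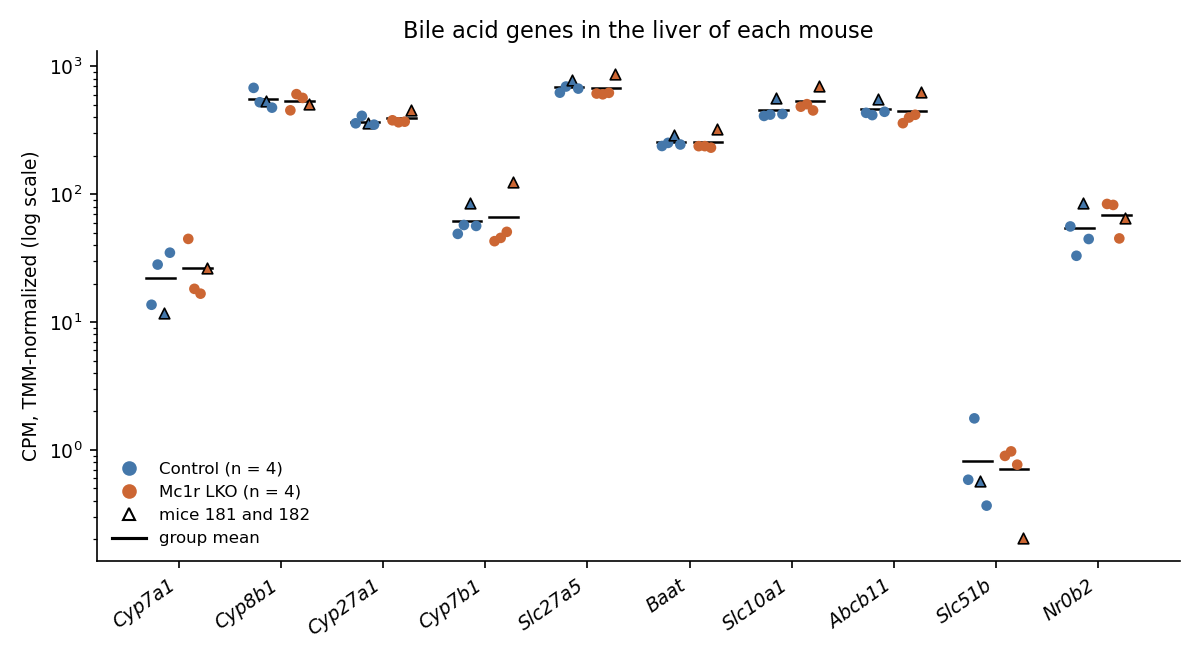
Level of each bile acid gene in each mouse, in CPM after TMM normalization on a log axis, for control (blue) and Mc1r LKO mice (orange), with lines at the group means. The genotypes overlap in all 10 genes, and mice 181 and 182 (triangles) are the 2 highest for Cyp7b1, Slc27a5, Baat, Slc10a1 and Abcb11.

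In the classic pathway, Cyp7a1 (ENSMUSG00000028240, chr4:6265612-6275633, minus strand) varied widely among mice of the same genotype. Its level in counts scaled to a common library size (CPM, TMM-normalized) was 13.7, 28.2, 11.7 and 34.9 in control mice 154, 159, 181 and 193, and 44.7, 18.2, 16.7 and 26.5 in Mc1r LKO mice 141, 156, 157 and 182. The highest value was in a Mc1r LKO mouse and the lowest in a control mouse, but values of both genotypes alternated in between, and the highest was 3.82 times the lowest. The group means were 22.1 ± 11.2 CPM in control and 26.5 ± 12.9 CPM in Mc1r LKO mice (SD, n = 4 each). The log2 fold change was 0.26 ± 0.40 (SE), with an adjusted p of 0.933 in edgeR's quasi-likelihood test. Its 95% interval reached from 0.651-fold to 2.20-fold, so a large change in either direction lay within what these mice allow. The estimate was -0.10 with mouse 141 left out.

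Cyp8b1 (ENSMUSG00000050445, chr9:121914356-121916305, minus strand), the enzyme that sets the share of cholic acid, was far steadier. It measured 679, 524, 537 and 475 CPM in the control mice and 453, 606, 567 and 503 CPM in the Mc1r LKO mice, in the same order. The genotypes overlapped almost entirely, with 554 ± 87.5 against 532 ± 67.8 CPM, and the interval of the fold change, from 0.783 to 1.18, was much narrower than that of Cyp7a1 (log2 fold change -0.06 ± 0.13, adjusted p = 0.962 in edgeR's quasi-likelihood test).

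Across the 8 mice, Cyp7a1 and Cyp8b1 ran in opposite directions. Mouse 141, with the highest Cyp7a1, had the lowest Cyp8b1, and mouse 154, with the highest Cyp8b1, had the second lowest Cyp7a1. Pearson's r of the log2 CPM was -0.80 (exact permutation p = 0.0180) and Spearman's rho -0.81 (exact permutation p = 0.0218). After adjustment over all 45 pairs of the 10 genes the p was 0.101 for r and 0.140 for rho, so the relation did not pass. Without control mouse 181 and Mc1r LKO mouse 141, the farthest from the median of Cyp7a1, r was -0.94. Among the 6 mice other than 181 and 182 it was -0.96 (exact permutation p = 0.00417), with an adjusted p of 0.146 over the 45 pairs. Mouse 154, with the highest Cyp8b1, stayed in both checks, so how far the relation rested on it was not tested.

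In the alternative pathway, Cyp27a1 (ENSMUSG00000026170, chr1:74713574-74737892, plus strand) was the steadiest of the 10 genes. It was 359, 410, 360 and 350 CPM in control mice and 379, 365, 369 and 457 CPM in Mc1r LKO mice. Only mouse 182 stood above the range of the controls. The means were 370 ± 27.4 and 392 ± 43.2 CPM, and the fold change was bounded between 0.907 and 1.24 (log2 fold change 0.09 ± 0.10, adjusted p = 0.914 in edgeR's quasi-likelihood test).

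Cyp7b1 (ENSMUSG00000039519, chr3:18071950-18243338, minus strand), which clears the oxysterols that Cyp27a1 makes, gave an average that described few of the mice. It was 49.0, 57.5, 85.2 and 56.5 CPM in control mice and 42.9, 45.6, 50.8 and 125.7 CPM in Mc1r LKO mice. Mouse 182 had the highest value of all and control mouse 181 the second highest, while the other 3 Mc1r LKO mice lay at or under the lower values of the controls. With all mice the means were 62.0 ± 15.9 and 66.2 ± 39.8 CPM, for a log2 fold change of 0.10 ± 0.33 and an adjusted p of 0.977 in edgeR's quasi-likelihood test. With mouse 182 left out it was -0.41 on that scale (unadjusted p = 0.0391, adjusted p = 0.613 in edgeR), without both 181 and 182 it was -0.22 (unadjusted p = 0.0696), and with 1 surrogate variable in the fit -0.25 (unadjusted p = 0.0473, adjusted p = 0.463). With limma-voom on all 8 mice it was -0.02, so the direction for Cyp7b1 changed with mouse 182 and with the model.

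Weighing the classic against the alternative pathway within each liver gave overlapping genotypes too. The log2 CPM of Cyp7a1 minus that of Cyp7b1 was -1.83, -1.03, -2.85 and -0.69 in control mice and 0.06, -1.32, -1.60 and -2.24 in Mc1r LKO mice. Cyp7a1 exceeded Cyp7b1 on this scale, which does not correct for gene length, only in mouse 141, and mice 181 and 182 had the lowest values of their genotype. The means were -1.60 ± 0.96 and -1.28 ± 0.97, a difference of 0.32 (two-sided exact permutation test, p = 0.657, and 0.657 after adjustment over 2 ratios). The difference was -0.09 when control mouse 181 was left out and -0.12 when Mc1r LKO mouse 141 was.

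The conjugation enzymes had narrow intervals around no change. Slc27a5 (ENSMUSG00000030382, chr7:12988346-12998192, minus strand) activates bile acids with coenzyme A, and Baat (ENSMUSG00000039653, chr4:49489422-49506557, minus strand) then joins them to taurine or glycine. Slc27a5 was 623, 695, 788 and 670 CPM in control mice and 613, 605, 621 and 872 CPM in Mc1r LKO mice, with means of 694 ± 69.4 and 678 ± 130 CPM. Baat was 238, 252, 290 and 245 CPM in control mice and 238, 238, 231 and 325 CPM in Mc1r LKO mice, with means of 256 ± 23.2 and 258 ± 44.8 CPM. In both genes mouse 182 was the highest of all mice and 181 the highest control, and the other 3 Mc1r LKO mice lay within a narrow band just below every control. The fold change was bounded between 0.790 and 1.21 for Slc27a5 (adjusted p = 0.980) and between 0.828 and 1.22 for Baat (adjusted p = 0.995, both in edgeR's quasi-likelihood test).

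**Figure D2:**
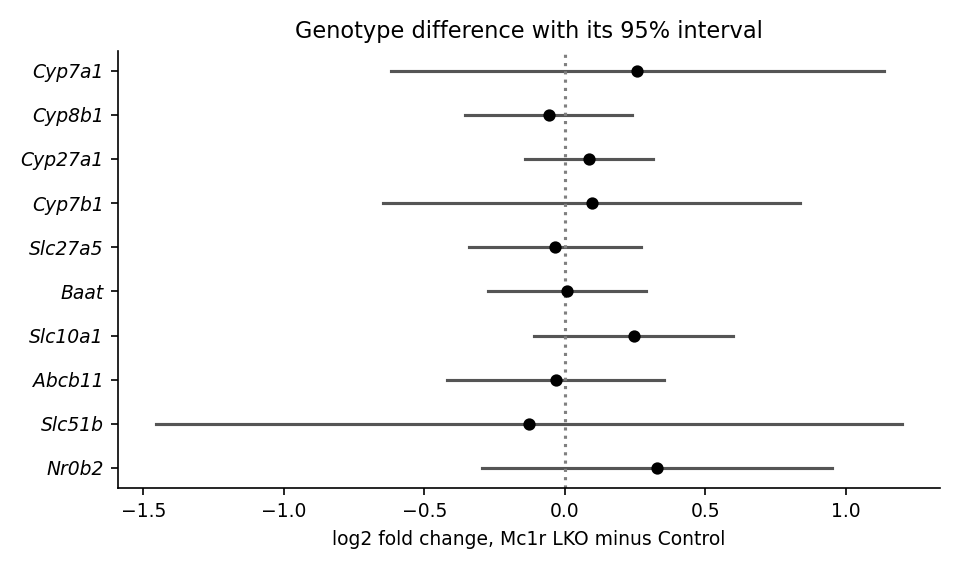
Log2 fold change of each bile acid gene, Mc1r LKO minus control, as points with lines for the 95% interval from edgeR's quasi-likelihood fit. Every interval includes 0, and the widest belong to Slc51b, Cyp7a1, Cyp7b1 and Nr0b2.

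Slc10a1 (ENSMUSG00000021135, chr12:80953183-80968705, minus strand), which takes conjugated bile acids up from portal blood, had the lowest p of the 10 genes. It was 410, 419, 562 and 424 CPM in control mice and 484, 506, 452 and 708 CPM in Mc1r LKO mice. All 4 Mc1r LKO mice lay above 3 of the 4 controls, and control mouse 181 lay above 3 of the 4 Mc1r LKO mice. The means were 454 ± 72.5 and 537 ± 116 CPM, and the log2 fold change of 0.24 ± 0.16 did not pass (unadjusted p = 0.157, adjusted p = 0.842 in edgeR's quasi-likelihood test), with an interval from 0.926-fold to 1.52-fold. Without control mouse 181 it was 0.37 (unadjusted p = 0.0431, adjusted p = 0.757), and without 181 and 182 it was 0.21 (unadjusted p = 0.0426, adjusted p = 0.673 in edgeR). Without Mc1r LKO mouse 182 alone it was 0.09 (unadjusted p = 0.502 in edgeR), the lowest with any 1 mouse left out.

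Abcb11 (ENSMUSG00000027048, chr2:69238282-69342616, minus strand), which pumps bile salts across the canalicular membrane into bile, showed no such offset. It was 433, 416, 554 and 441 CPM in control mice and 359, 398, 418 and 627 CPM in Mc1r LKO mice. Mice 181 and 182 were again the highest of their genotypes, and 2 of the other 3 Mc1r LKO mice lay below every control. The means were 461 ± 62.9 and 450 ± 120 CPM, with a log2 fold change of -0.03 ± 0.17 and an interval from 0.748-fold to 1.28-fold (adjusted p = 0.986 in edgeR's quasi-likelihood test).

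Uptake and export were also set against each other within each liver. The log2 CPM of Slc10a1 minus that of Abcb11 was -0.08, 0.01, 0.02 and -0.06 in control mice and 0.43, 0.35, 0.11 and 0.18 in Mc1r LKO mice. Every Mc1r LKO mouse, 182 included, stood above every control, 181 included, and the controls lay close together around 0. The means were -0.03 ± 0.05 and 0.27 ± 0.15 (SD, n = 4 each), a difference of 0.29 on the log2 scale. The two-sided exact permutation p was 0.0286, the smallest that 4 mice against 4 allow, and 0.0571 after adjustment over the 2 ratios, which did not pass the threshold. At this number of mice a ratio could pass that adjustment only if both ratios reached the smallest p. Leaving out each mouse in turn kept the difference between 0.24 and 0.34, and the scaling of the libraries cancels in this ratio. Its sign could not turn in this way, because the genotypes do not overlap.

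Slc10a1 was also the numerator in the other ratios that separated the genotypes. Of the 45 ratios between pairs of the 10 genes, 3 did not overlap, those of Slc10a1 to Abcb11, to Slc27a5 (a difference of 0.28 on the log2 scale) and to Baat (0.24). Each had the smallest exact permutation p that 4 mice against 4 allow, and adjusted over all 45 ratios it was 0.429, which did not pass. With only 3 of 45 ratios at the smallest p, the adjusted value could not have been lower. For single genes, the genotypes did not overlap in 4.16% of those tested. These 3 ratios share Slc10a1, so they are not separate observations. Abcb11, Slc27a5 and Baat also moved together over all 8 mice, though Abcb11 less so without mice 181 and 182.

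**Figure D3:**
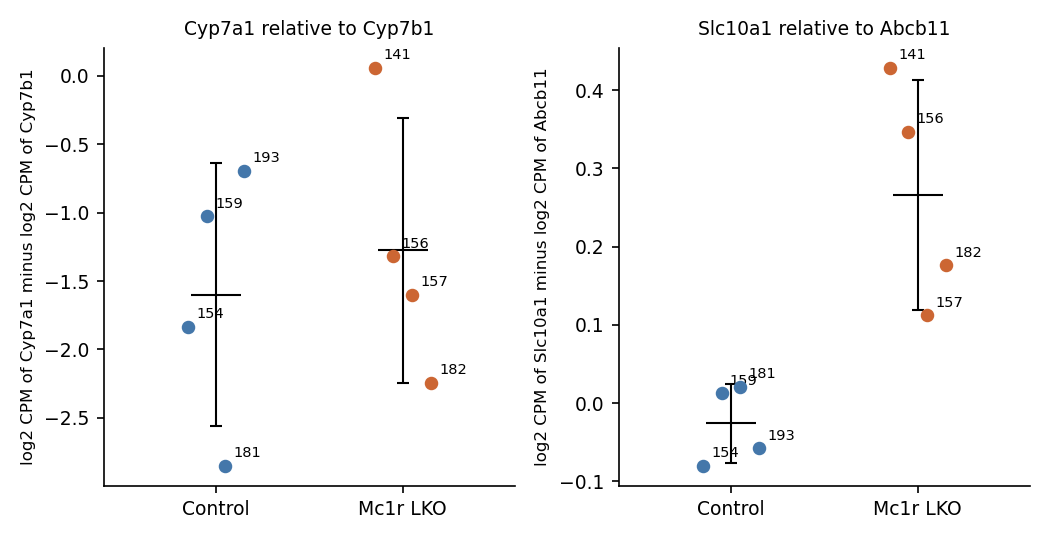
Difference in log2 CPM within each mouse between Cyp7a1 and Cyp7b1 (left) and between Slc10a1 and Abcb11 (right), with mouse numbers and with bars for the mean and SD of each genotype. The genotypes overlap on the left, while on the right the Mc1r LKO mice lie between 0.11 and 0.43 and the controls between -0.08 and 0.02.

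Slc51b (ENSMUSG00000053862, chr9:65412714-65422955, minus strand), which returns bile acids from hepatocytes to blood, was counted only 11, 19, 11 and 9 times in control mice and 13, 15, 19 and 4 times in Mc1r LKO mice. This came to 0.585, 1.77, 0.573 and 0.367 CPM and to 0.899, 0.975, 0.767 and 0.204 CPM. The largest and smallest values differed 8.64 times, and the genotypes overlapped. The interval of the fold change, from 0.365 to 2.30, was the widest of the 10 genes, and the log2 fold change of -0.13 ± 0.60 (adjusted p = 0.985 in edgeR's quasi-likelihood test) was 0.48 without control mouse 159. Changes within this interval were not detectable at the depth of this gene. Its partner subunit, Slc51a, had 0 counts in every mouse, which allows up to between 0.121 and 0.278 CPM depending on depth, by counting error only.

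Nr0b2 (ENSMUSG00000037583, chr4:133553376-133556536, plus strand), the Fxr target that feeds back on synthesis, had the largest estimate of the 10 genes. It was 56.0, 33.0, 85.7 and 44.6 CPM in control mice and 83.9, 82.5, 45.1 and 64.9 CPM in Mc1r LKO mice. A control, mouse 181, had the highest value, but 3 of the 4 Mc1r LKO mice lay above the other 3 controls. The means were 54.8 ± 22.6 and 69.1 ± 18.2 CPM. The log2 fold change of 0.33 ± 0.28 did not pass (unadjusted p = 0.267, adjusted p = 0.882 in edgeR's quasi-likelihood test), with an interval from 0.816-fold to 1.93-fold. Without control mouse 181 it was 0.63 (unadjusted p = 0.0243, adjusted p = 0.757), and without 181 and 182 it was 0.66 (unadjusted p = 0.0247, adjusted p = 0.667 in edgeR). Without control mouse 159 it was 0.16 (unadjusted p = 0.558 in edgeR), the lowest with any 1 mouse left out.

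Of the genes around the Fxr-Shp axis, Nr1h4 itself lay between 97.0 and 105 CPM in control mice and between 96.3 and 122 CPM in Mc1r LKO mice, for a difference of 0.08 on the log2 scale with an interval from -0.12 to 0.29. Nr5a2 (0.12), Hnf4a (0.15), which encodes a hepatocyte nuclear receptor that drives synthesis genes, and the receptor for intestinal Fgf15 with its coreceptor, Fgfr4 (0.17) and Klb (0.19), each had a log2 fold change whose interval included 0, the widest being that of Hnf4a, from -0.28 to 0.59. Fgf15 itself, made in the ileum, had 0 counts in every liver, at the same limits as Slc51a.

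No relation of Nr0b2 to its known targets or to fellow Fxr targets passed the threshold across the mice. Over 8 mice, Pearson's r of the log2 CPM with Nr0b2 was -0.17 for Cyp7a1 (exact permutation p = 0.673, adjusted over 5 relations 0.917) and -0.01 for Cyp8b1 (p = 0.974, adjusted 0.974, by the same exact permutation). It was 0.14 for Abcb11 (exact permutation p = 0.734, adjusted 0.917) and -0.25 for Slc51b (exact permutation p = 0.551, adjusted 0.917). The largest was 0.56 for Slc10a1 (exact permutation p = 0.154, adjusted 0.768), and 0.41 without control mice 159 and 181, the farthest from the median of Nr0b2. Without these mice r was 0.25 for Cyp7a1, -0.09 for Cyp8b1, -0.22 for Abcb11 and 0.37 for Slc51b. Spearman's rho was -0.29, 0, 0, -0.14 and 0.69 for Cyp7a1, Cyp8b1, Abcb11, Slc51b and Slc10a1, with exact permutation p-values of 0.501, 1, 1, 0.752 and 0.0694 and adjusted values of 1, 1, 1, 1 and 0.347.

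The spread between livers differed widely among the 10 genes. The SD of the log2 CPM within genotypes was 0.71 for Cyp7a1, 0.57 for Cyp7b1 and 0.50 for Nr0b2, larger than in 98.7%, 97.7% and 97.1% of the genes whose mean lay within 0.5 log2 units of theirs. For Cyp27a1 it was 0.13, larger than in 31.1% of such genes. Cyp8b1 (0.20), Slc27a5 (0.21), Baat (0.19), Slc10a1 (0.25) and Abcb11 (0.28) lay between, and Slc51b had 0.84 at counts of 4 to 19.

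Mice 181 and 182 stood apart from the others over all genes tested as well. On the first principal component of the log2 CPM they scored 27.8 and 59.3, and the other 6 mice between -28.2 and -7.03. They were the 2 highest mice for Cyp7b1, Slc27a5, Baat, Slc10a1 and Abcb11, and mouse 182 was the lowest for Slc51b. Of the 45 pairs of bile acid genes, 6 correlated across the 8 mice with an adjusted p under 0.05, all among Cyp7b1, Slc27a5, Baat and Abcb11. By Spearman's rho none of the 45 pairs passed the adjustment. The share of such pairs among all genes tested was not computed. With the first principal component r was 0.90 for Cyp7b1, 0.85 for Slc27a5, 0.91 for Baat and 0.90 for Abcb11. For Cyp7b1 and Slc27a5, r was 0.98 (exact permutation p = 1.49e-04, adjusted 0.00670) and Spearman's rho 0.95 (exact permutation p = 0.00114, adjusted 0.0513).

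Without mice 181 and 182 these relations were weaker, and none of the 45 pairs passed the adjustment, for which 6 mice allow no exact permutation p below 0.00139. For Cyp7b1 and Slc27a5, r among the 6 mice was still 0.90 (exact permutation p = 0.0139, adjusted 0.156), and for Slc27a5 and Baat 0.88, against 0.98 with all 8. For Abcb11 it fell from 0.93 to 0.24 with Baat and from 0.94 to 0.48 with Slc27a5, so these relations rested on mice 181 and 182. For Slc10a1, r with Abcb11 was 0.75 over 8 mice and -0.75 over 6, and that with Cyp7b1 0.81 over 8 and -0.75 over 6 (exact permutation p = 0.0750 and 0.0917 over 6 mice, adjusted 0.412 for both). These 6 mice pool both genotypes. Among them Slc10a1 was 452 to 506 CPM in Mc1r LKO and 410 to 424 CPM in control mice. Abcb11 was 359 to 418 against 416 to 441 CPM, and Cyp7b1 42.9 to 50.8 against 49.0 to 57.5 CPM. The negative r thus includes the genotype difference, and r within a genotype was not computed. What set mice 181 and 182 apart was not tested, and each belongs to another genotype.

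**Figure D4:**
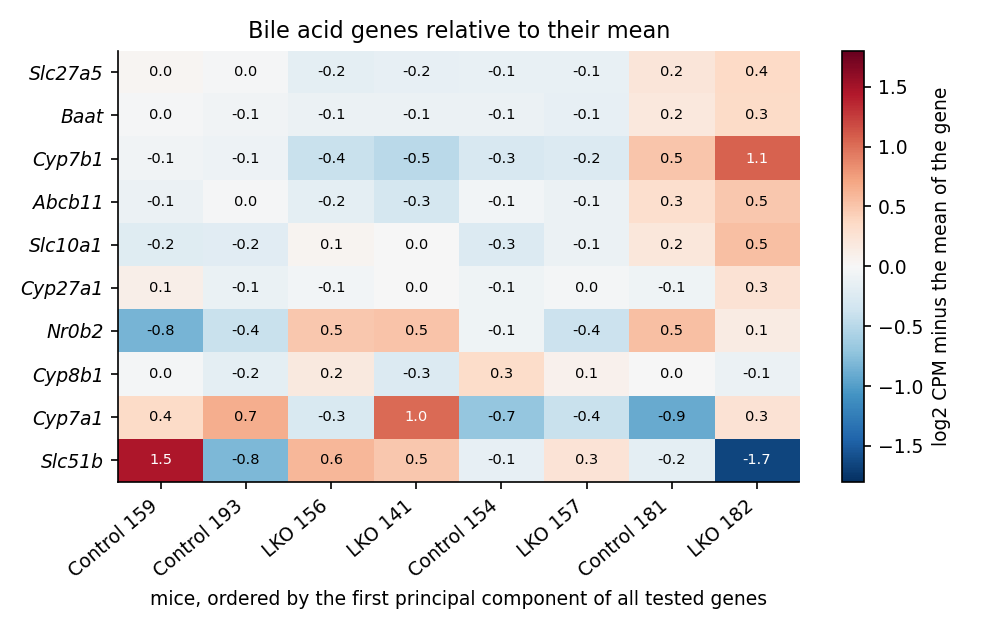
Log2 CPM of each bile acid gene in each mouse minus the mean of that gene over the 8 mice, with mice ordered from left to right by the first principal component of all tested genes. Control 181 and LKO 182, at the right, are red for Slc27a5, Baat, Cyp7b1, Abcb11 and Slc10a1, while Cyp7a1, Cyp8b1 and Nr0b2 follow another order.

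The genes most like 4 of the bile acid genes in their pattern over the 8 mice were found among all tested genes by Pearson's r of the log2 CPM, as a description. For Cyp7a1 they were Eln (0.95), which encodes elastin, Lnpk (0.94) and Phkg2 (0.94), a phosphorylase kinase subunit. For Cyp7b1 they were Bach1 (0.99), a transcription factor that binds heme, Klhl9 (0.98) and Slc27a5 (0.98), and among the 6 mice other than 181 and 182 their r was 0.90, 0.83 and 0.90. For Nr0b2 they were Eif2b3 (0.95), a subunit of a translation initiation factor, Pkia (0.95), an inhibitor of protein kinase A, and Snx1 (0.92). For Slc51b, at a few counts per mouse, they were Gm15879 (0.99), Gm11967 (0.97) and Bbs1 (0.97).

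A wider list of 63 genes of bile acid metabolism, which holds the 10 genes, gave few genes past even the unadjusted threshold. Of the 58 genes tested, 27 had an estimate above 0 and 31 below, and the median was -0.03 on the log2 scale. None passed the adjusted threshold, 0 were higher and 3 were lower at an unadjusted p under 0.05, where 6.72% of all tested genes passed in either direction. Over all genes tested, 47.9% of the estimates were above 0. Of 8 genes of canalicular export and bile lipids 1 was above 0 and 7 below (median -0.12), none at an unadjusted p under 0.05, and with control mouse 181 or Mc1r LKO mouse 157 left out 4 of the 8 were above 0 (median -0.02 and -0.06). All 3 tested genes of basolateral efflux were below 0 (median -0.16), none at an unadjusted p under 0.05, but with Mc1r LKO mouse 182 left out 2 of the 3 were above 0, at 0.20 for Slc51b and 0.0058 for Abcc4, and Abcc3 was at -0.0023. In sensing and regulation 11 of 16 were above 0 (median 0.10), and 7 of 16 with mouse 182 left out (median -0.02). The estimate was above 0 in side chain cleavage and conjugation for 5 of 12 (median -0.04), in synthesis for 5 of 8 (median 0.04), in basolateral uptake for 3 of 6 (median 0.03) and in rodent hydroxylation and sulfation for 2 of 5 (median -0.06).

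The 3 lower genes were Zfp36l1, Mafg and Cyp3a11. Zfp36l1 encodes an RNA-binding protein that promotes decay of mRNAs, among them that of Cyp7a1. It was 129, 158, 167 and 135 CPM in control mice and 113, 117, 110 and 108 CPM in Mc1r LKO mice, so that every Mc1r LKO mouse lay below every control. Its log2 fold change was -0.40 ± 0.10 (unadjusted p = 0.00254, adjusted p = 0.734 in edgeR's quasi-likelihood test). Mafg, an Fxr target that represses Cyp8b1, was 91.8, 96.4, 107 and 90.8 CPM in control mice and 78.4, 85.4, 78.1 and 73.8 CPM in Mc1r LKO mice, again without overlap, with a log2 fold change of -0.29 ± 0.09 (unadjusted p = 0.00740, adjusted p = 0.734 in edgeR). Both stayed below an unadjusted p of 0.05 with each mouse left out in turn.

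Cyp3a11, a cytochrome P450 that hydroxylates bile acids and drugs and is induced through the pregnane X receptor, averaged 2956 ± 383 CPM in control and 1938 ± 693 CPM in Mc1r LKO mice, with overlap. It was 2399, 3063, 3275 and 3088 CPM in control mice and 2794, 2187, 1526 and 1246 CPM in Mc1r LKO mice. Mouse 141 lay within the controls and mouse 182 was the lowest. The log2 fold change was -0.61 ± 0.23 (unadjusted p = 0.0235, adjusted p = 0.734 in edgeR's quasi-likelihood test), and the unadjusted p was 0.0537 when control mouse 181 was left out and 0.0711 when Mc1r LKO mouse 157 was. Cyp3a11 belongs to a family of similar genes, between which shared reads can be lost or split in the counting.

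Further genes of the pathway were followed whatever their result. Hsd3b7, which acts after Cyp7a1 in the classic pathway, was 24.1, 23.6, 31.4 and 25.5 CPM in control mice and 17.8, 19.6, 19.5 and 28.9 CPM in Mc1r LKO mice. All Mc1r LKO mice other than 182 lay below every control, and the log2 fold change was -0.29 ± 0.16 (unadjusted p = 0.104, adjusted p = 0.797 in edgeR's quasi-likelihood test). Without mouse 182 it was -0.46 (unadjusted p = 0.00334, adjusted p = 0.574), and with 1 surrogate variable -0.40 (unadjusted p = 4.64e-04, adjusted p = 0.277 in edgeR). Without control mouse 181 it was -0.18 (unadjusted p = 0.288 in edgeR).

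Akr1d1, the reductase of the same pathway, had a log2 fold change of 0.00 ± 0.23, and Cyp2c70, which makes the muricholic acids of rodents, 0.35 ± 0.36. The sodium-independent uptake transporter Slco1b2 had -0.03 ± 0.15, and the basolateral efflux pumps Abcc3 and Abcc4 had -0.16 ± 0.19 and -0.26 ± 0.40, all with intervals that included 0. Mouse 182 had the highest Cyp2c70 of all mice and the lowest Abcc3 and Abcc4.

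**Figure D5:**
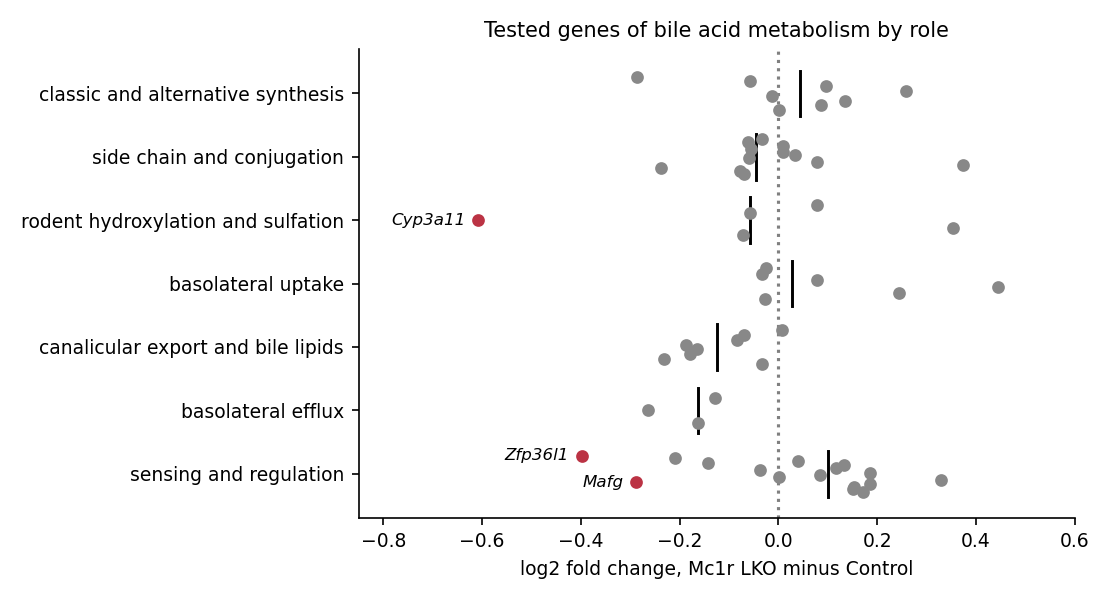
Log2 fold change, Mc1r LKO minus control, of the 58 tested genes of the wider list by role, with a line at the median of each role. The 3 genes with an unadjusted p under 0.05, Cyp3a11, Zfp36l1 and Mafg, are red and lie between -0.61 and -0.29.

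Markers of liver cell types were read beside these results. Between 10773151 and 24763375 read pairs were counted in a mouse, and the 10 bile acid genes took between 0.275% and 0.338% of it. All 6 hepatocyte markers were higher in Mc1r LKO mice, 1 of them, Tat, at an unadjusted p under 0.05 (0.0374 in edgeR's quasi-likelihood test), and their summed level was 67819 to 85193 CPM in control and 74446 to 97607 CPM in Mc1r LKO mice, highest in mouse 182. The 5 tested cholangiocyte markers of 7 were all higher, at 127 to 179 against 155 to 296 CPM in sum, and the 5 Kupffer cell markers all lower, at 223 to 497 against 155 to 316 CPM, with none at an unadjusted p under 0.05. Most of the cholangiocyte sum was Spp1 and Slc10a2. Spp1 was 239 CPM in mouse 141, while mouse 182 had 158 CPM of Slc10a2 and the lowest Spp1 of all, 16.8 CPM. The log2 fold change of Sox9 was 0.05. Of the sinusoidal endothelial markers 2 of 4 were higher (118 to 143 against 89.0 to 145 CPM) and of the stellate cell markers 2 of 5 (203 to 322 against 185 to 312 CPM), and no marker was at 0 in every mouse. Of 10 clock genes, which follow the time of day as Cyp7a1 is known to do, 4 had an estimate above 0 and 6 below. Per1 alone had an unadjusted p under 0.05, with overlap (log2 fold change 0.76, adjusted p = 0.734 in edgeR). Nr1d2 alone did not overlap, at 69.6 to 79.5 CPM in control and 61.2 to 69.3 CPM in Mc1r LKO mice (log2 fold change -0.17, unadjusted p = 0.0590, adjusted p = 0.752 in edgeR). The part of cell composition and of sampling time in the values above was not tested.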

How the data were processed

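Liver RNA of 8 mice was sequenced. The authors trimmed the reads (Trim Galore 0.6.6), aligned them with STAR 2.7.6a and counted read pairs per gene by strand with Subread 2.0.1, and deposited whole-number counts per mouse without normalization. The file headers name an Ensembl annotation of GRCm38, while the methods write GRCh38. From the deposited counts, genes were kept by filterByExpr (minimum count 10, minimum total count 15), normalized by TMM and tested by quasi-likelihood (edgeR 4.0.16 in R 4.3.3). The p-values of the 13400 genes kept were adjusted by Benjamini-Hochberg. Log2 CPM has a prior count of 2, and RPKM uses exon length. The fit was tested on simulated data. Ratios and relations were tested by exact permutation (scipy 1.17.1).

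Alternatives were DESeq2 1.42.0, limma-voom (limma 3.58.1), edgeR's likelihood ratio test, other normalizations and filters, robust dispersion, 1 surrogate variable (sva 3.50.0), leaving out each mouse, and leaving out 181 and 182 together. The genes and lists were chosen with earlier results of these data known. Genes named were the 10 genes, 14 others set by name, wider-list genes with an unadjusted p under 0.05, the 3 genes most like Cyp7a1, Cyp7b1, Nr0b2 and Slc51b, markers and Mc1r. The pairs of all 10 genes, the octamer, the adjustment over 45 ratios and the alternatives for the wider list were added after the values were seen. No batch is named for these mice. The totals of 10773151 to 24763375 counts per mouse limited the precision of genes at few counts, such as Slc51b.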

Additional observations from a re-analysis of the deposited data

Results flagged for a closer look

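Some mice lay far from the other 3 of their genotype (Dixon's ratio of the gap to the range, on log2 CPM). Of the 52 groups of 4 mice checked, 9 were marked in this way, where about 2.6 would be by chance at 1 in 20. In 7 of these groups the mouse was Mc1r LKO 182. It had 125.7 CPM of Cyp7b1 where the other Mc1r LKO mice had 42.9 to 50.8, 456.8 CPM of Cyp27a1 against 365 to 379, 325.0 CPM of Baat against 231 to 238, and 872.0 CPM of Slc27a5 against 605 to 621. It had 501.4 CPM of Cyp2c70 against 158 to 190, 203.5 CPM of Abcc3 against 343 to 345, and 0.204 CPM of Slc51b against 0.767 to 0.975, the last from 4 counts. Control mouse 181 had 562.1 CPM of Slc10a1 where the other controls had 410 to 424. Control mouse 154 had 123.6 CPM of Cyp2c70 where the other controls had 214 to 233. The log2 ratios of Cyp7a1 to Cyp7b1 and of Slc10a1 to Abcb11 held no such mouse.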

How the results depend on the processing

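No bile acid gene among the 10, and none of the wider list, passed the adjusted threshold under any of the 19 alternatives. Few genes of any kind did. With DESeq2 17 of 13400 passed it, and with the likelihood ratio test 8 of 13400. With a filter of 1 count in any mouse 1 of 24087 passed, and none in the other alternatives. The ratio of Slc10a1 to Abcb11 kept its direction in all 9. Leaving out 1 mouse could not turn it, because the genotypes do not overlap. The spread of Cyp7a1, Cyp7b1, Nr0b2 and Slc51b among 4 mice a group left wide intervals, and Slc51b, limited by its counts, was not kept when 10 counts were asked of every mouse. The cause of the turned directions was not tested. No paired analysis was possible because the labels name no litter or cage for these mice.

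The number of the 10 genes at an unadjusted p under 0.05 was 1 with 1 surrogate variable (Cyp7b1), 2 without mice 181 and 182 (Nr0b2 and Slc10a1) and between 0 and 2 with each mouse left out. In the wider list, 7 genes were lower with 1 surrogate variable, 5 lower and 2 higher without mice 181 and 182, and with each mouse left out 2 to 7 were lower and 0 to 2 higher. The number over all genes moved as well. It was 1422 of 13400 with 1 surrogate variable and 981 of 13385 without mice 181 and 182. With each mouse left out it ran from 674 of 13577 (without control 193) to 1095 of 13674 (without Mc1r LKO 182).

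Directions turned only in estimates that had not passed a test. With each mouse left out, the log2 fold change ranged from -0.10 to 0.59 for Cyp7a1, -0.41 to 0.29 for Cyp7b1, -0.12 to 0.060 for Cyp8b1, -0.23 to 0.069 for Abcb11, -0.39 to 0.48 for Slc51b, -0.12 to 0.075 for Baat and -0.17 to 0.034 for Slc27a5. It ranged from -0.026 to 0.18 for Nr5a2, -0.078 to 0.27 for Hnf4a, -0.15 to 0.065 for Slco1b2, -0.50 to 0.0058 for Abcc4, -0.20 to 0.54 for Cyp2c70 and -0.27 to 0.15 for Akr1d1. The difference in the Cyp7a1 to Cyp7b1 ratio ranged from -0.12 to 0.65.

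With 1 surrogate variable the log2 fold change was -0.25 for Cyp7b1, 0.052 for Slc51b, -0.073 for Baat, -0.0020 for Hnf4a, -0.022 for Cyp2c70 and -0.18 for Akr1d1. Without both 181 and 182 it was -0.22 for Cyp7b1, 0.092 for Slc51b, -0.049 for Baat, -0.013 for Nr5a2, 0.023 for Abcc4, -0.11 for Cyp2c70 and -0.12 for Akr1d1. With limma-voom it was -0.024 for Cyp7b1, -0.0024 for Baat and -0.034 for Akr1d1. With library size alone it was -0.040 for Baat and -0.054 for Akr1d1, which had -0.0099 with upper quartile scaling and -0.0020 with 10 counts in every mouse. For Nr0b2, r without the mice farthest from its median was 0.25 with Cyp7a1, -0.22 with Abcb11 and 0.37 with Slc51b, and with values centred on each genotype 0.051 with Cyp8b1.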
